A study of Mus musculus with 23 samples.

Results

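A set of 9 genes that mark endothelial cells, the cells that line blood vessels, was followed across the Notch1 genotypes of mouse iPax3 cells. It comprised Kdr, Flt1, Tek, Aplnr, Cdh5, Cldn5, Pecam1, Esam and Emcn, 9 of the 21264 genes of the deposited table, each found there by its symbol. The genes were chosen by their measured expression, because an endothelial list had risen in re-isolated N1OE and N1KO cells relative to re-isolated controls. Their differences from those controls are therefore given as a description: no p-value is printed for them, and nothing is read from how many passed a threshold.

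RNA from 23 libraries in 5 groups was sequenced in bulk, to follow gain and loss of Notch1 signalling in cells that engraft muscle. All cells came from the iPax3 line of pluripotent stem cells, in which the transcription factor Pax3 is used to obtain muscle progenitors and which the cell type label of the cultures gives as derived from ESC, embryonic stem cells. N1OE cells overexpressed NICD1, the intracellular domain through which Notch1 acts in the nucleus, N1KO cells carried a knockout of Notch1, and controls are labelled WT. Cultured myogenic progenitors were N1OE (n = 3) and control (n = 4), and satellite cells of donor origin, isolated again from the host, were N1OE (n = 4), N1KO (n = 3) and control (n = 9). The labels do not give the promoter of NICD1, the number of clones, the host or the gate of the re-isolation. Nor do they say that replicates came from different cultures or animals. The p-values then measure only the spread of these samples, and that spread may be technical.

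Endothelial cells respond to VEGF through the receptors encoded by Kdr and Flt1, to angiopoietins through the product of Tek and to apelin through that of Aplnr. Their contacts are held by VE-cadherin (Cdh5), claudin-5 (Cldn5) and the adhesion molecules encoded by Pecam1 and Esam, and their surface carries the sialomucin encoded by Emcn. Notch signalling in vessels is known to balance sprouting against quiescence and to set arterial identity, and capillaries of muscle lie close to satellite cells.

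Promoters are shown for 4 genes with unlike patterns: Kdr and Emcn, high in N1OE and N1KO after re-isolation, Cldn5, high in N1KO, and Flt1, high in cultured N1OE. They are RefSeq promoters on GRCm38.p6, 300 bases each, from 250 before to 50 after the start, printed 5′ to 3′ on the strand of the gene: Kdr at chr5:75978406-75978705 (minus), Flt1 at chr5:147725962-147726261 (minus), Cldn5 at chr16:18776597-18776896 (plus) and Emcn at chr3:137340828-137341127 (plus). Capitals mark TGGGAA, the core bound by RBPJ, the DNA-binding partner of NICD1, and AGGAAG or CGGAAG, cores bound by ETS factors. Both strands were searched, and no match of one motif overlapped a match of the other.
Kdr: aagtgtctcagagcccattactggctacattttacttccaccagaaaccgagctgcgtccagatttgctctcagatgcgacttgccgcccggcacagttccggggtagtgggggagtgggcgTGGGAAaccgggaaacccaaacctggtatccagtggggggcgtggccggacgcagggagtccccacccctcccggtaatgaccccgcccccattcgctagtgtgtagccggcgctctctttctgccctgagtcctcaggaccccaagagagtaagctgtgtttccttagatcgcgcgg
Flt1: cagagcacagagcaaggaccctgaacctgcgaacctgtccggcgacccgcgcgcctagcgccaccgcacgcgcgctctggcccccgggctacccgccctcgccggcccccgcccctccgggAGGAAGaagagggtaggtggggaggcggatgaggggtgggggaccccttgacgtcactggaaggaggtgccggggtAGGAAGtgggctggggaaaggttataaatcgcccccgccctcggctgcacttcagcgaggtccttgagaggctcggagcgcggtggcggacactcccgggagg
Cldn5: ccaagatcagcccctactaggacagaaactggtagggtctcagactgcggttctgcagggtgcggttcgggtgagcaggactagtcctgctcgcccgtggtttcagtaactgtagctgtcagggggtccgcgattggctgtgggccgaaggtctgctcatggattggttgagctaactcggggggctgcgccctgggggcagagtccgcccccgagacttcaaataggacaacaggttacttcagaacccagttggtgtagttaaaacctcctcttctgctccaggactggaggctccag
Emcn: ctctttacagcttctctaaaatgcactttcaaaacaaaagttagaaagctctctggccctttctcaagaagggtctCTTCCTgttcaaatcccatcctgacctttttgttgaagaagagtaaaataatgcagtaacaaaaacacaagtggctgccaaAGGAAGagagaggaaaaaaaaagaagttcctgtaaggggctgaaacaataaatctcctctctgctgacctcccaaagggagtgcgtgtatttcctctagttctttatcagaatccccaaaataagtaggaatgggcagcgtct
Kdr held 1 TGGGAA, starting 128 bases before the start site, and no ETS core. Flt1 held AGGAAG at 2 places on its own strand, starting 129 and 53 bases before the start, and Emcn held it at 2 places, on opposite strands. Cldn5 and Tek, which is not printed, held neither motif in this window. TGGGAA was present in 25.6% and an ETS core in 46.5% of the 32851 RefSeq promoters of this length. A match describes letters and is not a binding site. Of the 9 genes 5 had a promoter in the table; Pecam1, Esam, Cdh5 and Aplnr are named only.

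Pax7, the defining gene of satellite cells, lay at 91.8 to 154 CPM (reads scaled to the total of the library) in re-isolated N1OE cells, at 19.9 to 153 CPM in N1KO cells and at 11.5 to 113 CPM in controls, and no cultured library exceeded 0.891 CPM. Notch1 measured 369.8, 297 and 322 CPM in cultured N1OE cells, against 61.3, 78.4, 71.0 and 105 CPM in cultured controls (log2 difference 2.08 ± 0.18 SE, adjusted p = 0.00244 by limma). After re-isolation it measured 247, 257, 151 and 98.1 CPM in N1OE cells, 15.6, 19.8 and 52.6 CPM in N1KO cells and 14.9 to 174 CPM in controls (median 88.9). All 3 N1KO and 2 of the 4 N1OE libraries fell inside the control range. Reads over the whole gene do not separate transgene from native gene, and they check the knockout only in part.

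The re-isolated controls were themselves split. The column headers of replicates 1, 4, 7, 8 and 9 end in GoF, which the labels do not explain (marked controls), and those of replicates 2, 3, 5 and 6 do not (unmarked). Notch1 lay at 14.9 to 88.9 CPM in marked and 136 to 174 CPM in unmarked controls (log2 difference -1.85 ± 0.44 SE, adjusted p = 0.00978 by limma). All N1OE libraries lay above the marked controls (2.04 ± 0.48, 0.00673), and all N1KO libraries below the unmarked ones (-2.6 ± 0.41, 0.000445). Against the other set the differences were 0.19 ± 0.38 for N1OE and -0.75 ± 0.52 for N1KO (adjusted p = 0.757 and 0.447). Genes seen with 1 read outnumbered those seen with 2 reads by 4.18 to 6.82 times in N1OE and 1.25 to 1.4 times in N1KO libraries, and by 4.17 to 5.91 times in marked and 1.08 to 1.5 times in unmarked controls. Differences are therefore given over all 9 controls and within each set, and the part of this library property in them was not tested. Library totals were 11637817 to 29154176 reads. Cultured and re-isolated libraries used different kits, so setting and kit cannot be told apart and were not tested against each other. In bulk RNA, fewer cells of a type and less RNA per cell cannot be told apart either.

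The receptor genes Kdr and Aplnr were higher in every N1OE and N1KO library than in every re-isolated control. Kdr (chromosome 5, 75932827 to 75978458, minus strand, mm10), the main signalling receptor of VEGF, had 6.0, 16.7, 17.5 and 6.48 CPM in N1OE cells and 5.85, 7.54 and 11.6 CPM in N1KO cells. In the 9 controls the lowest, median and highest values were 0, 0.173 and 4.88 CPM. The groups did not overlap; the nearest control was replicate 6, and the other 8 stayed at or below 1.21 CPM. Means were 11.7 ± 6.28 CPM in N1OE, 8.33 ± 2.96 CPM in N1KO and 0.908 ± 1.56 CPM in controls (SD, n = 4, 3 and 9). On the log2 scale, the difference from controls was 4.8 ± 0.92 (SE) for N1OE and 4.44 ± 1.02 for N1KO, 4.94 and 4.57 against the marked, and 4.64 and 4.27 against the unmarked controls. Both contrasts share the control libraries.

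Aplnr (chromosome 2, 85136225 to 85139923, plus strand), the apelin receptor, had 17.4, 14.4, 8.16 and 7.99 CPM in N1OE cells and 3.65, 15.4 and 11.1 CPM in N1KO cells. Control values had a minimum, median and maximum of 0, 0.536 and 2.35 CPM. Control replicates 1, 2 and 7 had no read, which allows up to 3 reads in each, and N1KO replicate 1 came nearest to the controls. Relative to all 9 controls the log2 difference was 5.12 ± 0.99 (SE) for N1OE and 4.72 ± 1.1 for N1KO, 5.88 and 5.49 against the marked, and 4.17 and 3.77 against the unmarked controls.

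Tek (chromosome 4, 94739289 to 94874976, plus strand), the angiopoietin receptor, was highest in N1OE. It had 16.3, 13.6, 31.6 and 25.2 CPM in N1OE cells and 1.69, 15.5 and 12.4 CPM in N1KO cells. The lowest, median and highest controls had 0.0346, 3.34 and 18.2 CPM. Control replicate 3, the highest, lay above 2 of the 4 N1OE libraries and above all N1KO libraries. The log2 difference from the controls was 3.4 ± 1.07 (SE) for N1OE and 1.84 ± 1.19 for N1KO, 4.47 and 2.9 against the marked, and 2.06 and 0.5 against the unmarked controls.

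Flt1 (chromosome 5, 147561604 to 147726011, minus strand), which binds VEGF tightly and has a soluble decoy form, did not separate the re-isolated groups. It had 17.7, 7.12, 14.7 and 6.85 CPM in N1OE cells and 13.3, 20.0 and 23.3 CPM in N1KO cells. In the 9 controls the lowest, median and highest values were 5.39, 8.63 and 23.9 CPM. All N1OE and N1KO libraries lay inside the control range. Against the marked controls alone (5.39 to 9.43 CPM) all 3 N1KO libraries were higher, as for 10% of tested genes, and so were 2 of the 4 N1OE libraries. On the log2 scale, the difference from controls was 0.06 ± 0.42 (SE) for N1OE and 0.85 ± 0.46 for N1KO, 0.57 and 1.36 against the marked, and -0.57 and 0.22 against the unmarked controls. For N1OE the sign thus turned with the control set, and it did so with median ratio scaling (-0.00519).

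**Figure D1:**
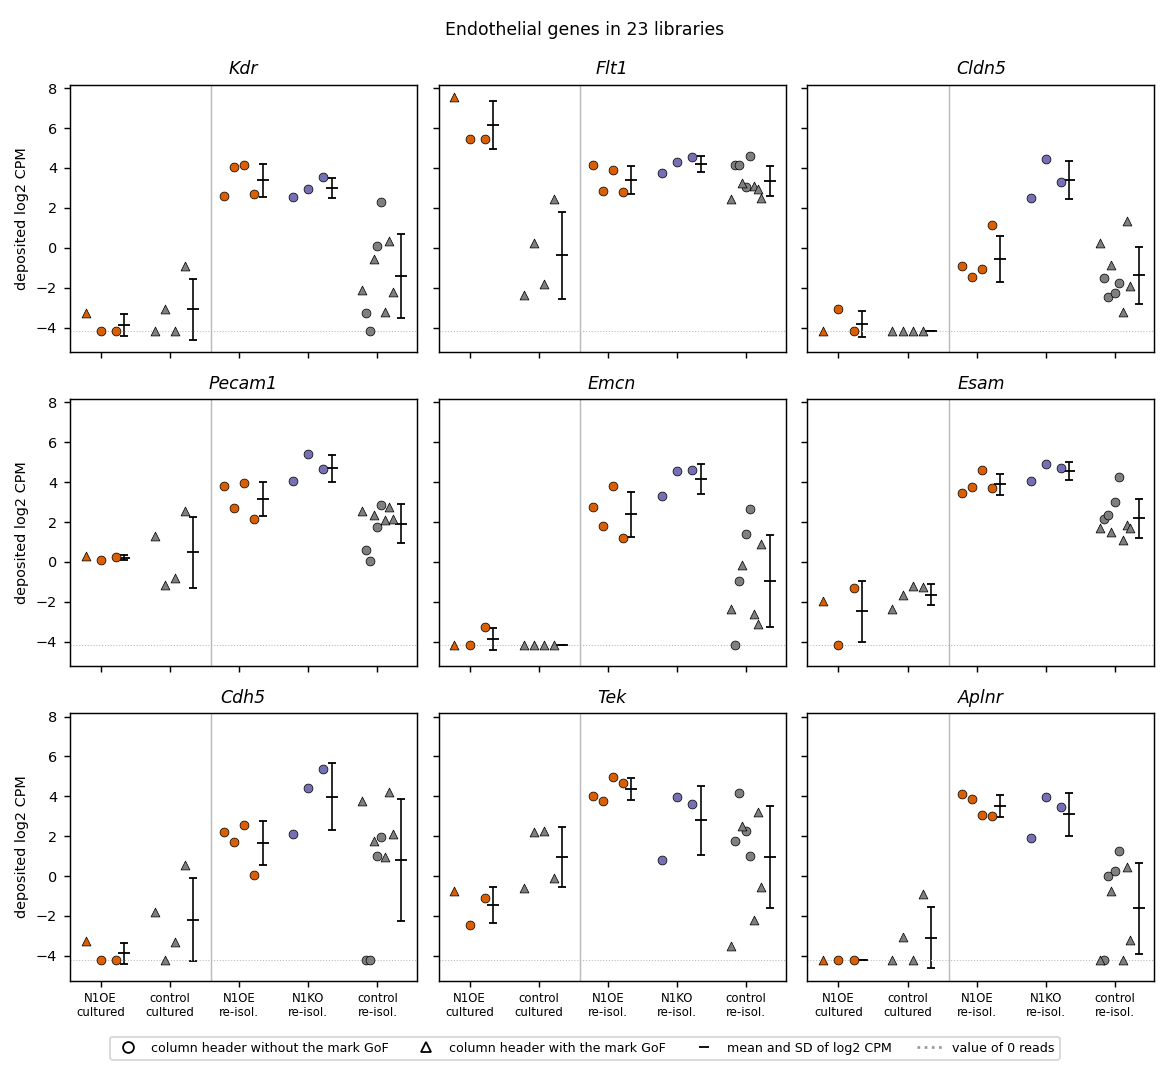
Deposited log2 CPM of the 9 genes (y axis) in each of 23 libraries, by group. Triangles have GoF in the column header, bars are mean and SD of log2 CPM, and the dotted line is the value of 0 reads. Kdr and Aplnr lie above all 9 re-isolated controls in N1OE and N1KO cells, Cldn5 is high in N1KO, and Flt1 is highest in cultured N1OE.

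All 4 junction genes had their highest mean in N1KO cells, and for Cldn5 and Pecam1 every N1KO library lay above every other re-isolated library. Cldn5 (chromosome 16, 18776847 to 18778262, plus strand), the claudin of endothelial tight junctions, had 0.48, 0.309, 0.43 and 2.18 CPM in N1OE cells and 5.68, 21.6 and 9.61 CPM in N1KO cells. Control values had a minimum, median and maximum of 0.0533, 0.241 and 2.48 CPM. N1KO libraries stood above all others, and all 4 N1OE libraries lay inside the control range. Relative to all 9 controls the log2 difference was 0.82 ± 0.8 (SE) for N1OE and 4.79 ± 0.89 for N1KO, 0.32 and 4.29 against the marked, and 1.44 and 5.41 against the unmarked controls.

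Pecam1 (chromosome 11, 106654217 to 106750628, minus strand), an adhesion molecule that platelets and leukocytes also carry, had 13.8, 6.5, 15.6 and 4.41 CPM in N1OE cells and 16.4, 41.8 and 25.5 CPM in N1KO cells. The lowest, median and highest controls had 0.96, 4.46 and 7.23 CPM. The N1KO libraries lay above both other groups, and N1OE replicates 2 and 4 lay inside the control range. The log2 difference from the controls was 1.25 ± 0.52 (SE) for N1OE and 2.8 ± 0.57 for N1KO, 0.78 and 2.32 against the marked, and 1.85 and 3.39 against the unmarked controls.

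Esam (chromosome 9, 37528078 to 37538319, plus strand), a junction molecule of endothelium and platelets, had 10.9, 13.3, 24.7 and 13.2 CPM in N1OE cells and 16.4, 29.8 and 26.2 CPM in N1KO cells. In the 9 controls the lowest, median and highest values were 2.08, 3.51 and 19.4 CPM. Control replicate 6 alone reached into the range of the N1OE and N1KO libraries, and the other 8 controls stayed at or below 7.94 CPM. On the log2 scale, the difference from controls was 1.71 ± 0.47 (SE) for N1OE and 2.37 ± 0.52 for N1KO, 2.32 and 2.98 against the marked, and 0.95 and 1.61 against the unmarked controls.

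Cdh5 (chromosome 8, 104101625 to 104144511, plus strand), which encodes VE-cadherin, varied widely among the controls. It had 4.6, 3.25, 5.84 and 0.985 CPM in N1OE cells and 4.27, 21.3 and 41.8 CPM in N1KO cells. Control values had a minimum, median and maximum of 0, 3.35 and 18.6 CPM. Marked control replicates 1 and 8 were the highest, unmarked replicates 2 and 3 had no read, and all N1OE libraries and N1KO replicate 1 lay inside the control range. Relative to all 9 controls the log2 difference was 0.82 ± 1.26 (SE) for N1OE and 3.16 ± 1.4 for N1KO, -0.92 and 1.42 against the marked, and 3.0 and 5.33 against the unmarked controls, so that for N1OE the sign turned with the control set.

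Emcn (chromosome 3, 137341067 to 137432185, plus strand), the sialomucin of capillaries and veins, had 6.62, 3.46, 13.9 and 2.23 CPM in N1OE cells and 9.67, 23.1 and 24.5 CPM in N1KO cells. The lowest, median and highest controls had 0, 0.459 and 6.33 CPM. N1KO libraries lay above all controls, and N1OE replicates 2 and 4 lay below control replicate 6. The log2 difference from the controls was 3.33 ± 1.0 (SE) for N1OE and 5.08 ± 1.11 for N1KO, 3.86 and 5.62 against the marked, and 2.65 and 4.41 against the unmarked controls.

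**Figure D2:**
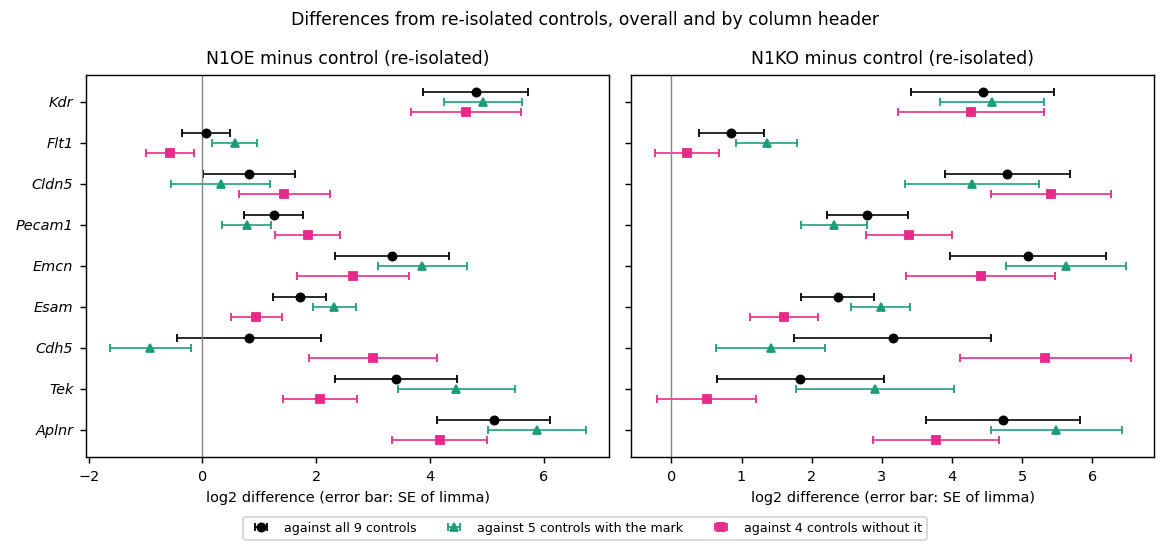
Log2 differences of the 9 genes (x axis, bars are the SE of limma), left N1OE minus control and right N1KO minus control, against all 9 controls, the 5 marked and the 4 unmarked ones. Kdr in N1OE stays between 4.64 and 4.94, while Cdh5 runs from -0.92 to 3.0.

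In N1OE cells 4 of the 9 genes (Kdr, Aplnr, Emcn and Esam) had an adjusted p under 0.05 on the higher side, as 3.78% of 14155 tested genes did, and in N1KO cells 5 of 9 (Kdr, Cldn5, Pecam1, Emcn and Esam), as 0.466% did. No overlap with the controls on the higher side was seen for 2 of 9 in N1OE (2.98% of tested genes) and 5 of 9 in N1KO (2.85%). Against the marked controls 5 were called in N1OE (6.26%) and 6 in N1KO (2.59%), with 5 (7%) and 7 (10%) free of overlap. Against the unmarked controls 4 (9.33%) and 7 (3.88%) were called, with 3 (11.4%) and 6 (12.1%) free of overlap. Without the filter on low values the count was 2 of 9 in N1OE (Kdr and Aplnr, 1.82% of 21264 genes) and 1 of 9 in N1KO (Cldn5, 0.372%). With single libraries left out it ran from 2 to 4 in N1OE, with 2 without N1OE replicate 2, 3 or 4. In N1KO it ran from 0 to 6, with 0 without N1KO replicate 2, 1 without N1KO replicate 1 or 3, 2 without control replicate 4 or 7, and 3 without control replicate 2 or 9 or with the replicate numbers as a block. These contrasts chose the genes, so nothing is read from the counts. The median log2 difference of the 9 genes was 1.71 in N1OE, against 0.06 over all tested genes, and 3.16 in N1KO, against 0.01. For Flt1, Cldn5 and Cdh5 all N1OE libraries lay inside the range of the 9 controls, while against the unmarked controls alone all N1OE libraries were higher for Cldn5.

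The libraries of a group were ordered alike for many of the genes. N1KO replicate 1 was the lowest of its group for 9 of 9 genes, and control replicate 6 the highest of 9 controls for 6. The 9 genes summed to 69.4 to 133 CPM in N1OE cells, 76.8 to 196 CPM in N1KO cells and 17.2 to 70.0 CPM in controls, where replicate 6 reached the lowest N1OE library. Over the 16 re-isolated libraries the 36 gene pairs had a median Pearson r of 0.55 on log2 CPM (-0.1 to 0.89), and of 0.27 (-0.38 to 0.89) after group means were removed. Kdr, Aplnr and Esam followed the mean profile of the 9 most closely (r = 0.91, 0.9 and 0.91) and Flt1 least (0.51) while group differences were left in. With group means removed, r was 0.83 for Kdr, 0.82 for Aplnr, 0.73 for Esam and 0.43 for Flt1, and lowest for Cldn5 (0.26). Each of the 9 genes is itself part of the mean profile, which raises its r with it. These r are descriptions over libraries of 3 groups, whose differences chose the genes, that share a kit and differ in depth.

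Per kilobase of exon, the order of the genes differed between genotypes. In re-isolated N1OE cells Esam (5.41 ± 2.18 CPM per kb, SD, n = 4), Tek (4.6 ± 1.76) and Aplnr (3.24 ± 1.26) were the most abundant and Cldn5 (0.60 ± 0.628) the least. In N1KO cells Cldn5 (8.68 ± 5.85 CPM per kb, n = 3), Esam (8.42 ± 2.43) and Cdh5 (5.34 ± 4.47) led, within each other's spread, and Kdr was last (0.922 ± 0.327). In controls Esam led (2.0 ± 1.89 CPM per kb, n = 9) and Kdr was last (0.101 ± 0.172).

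Kdr and Aplnr were above the controls both in N1OE and in N1KO cells, while every N1OE library had more Notch1 reads than every N1KO library.

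**Figure D3:**
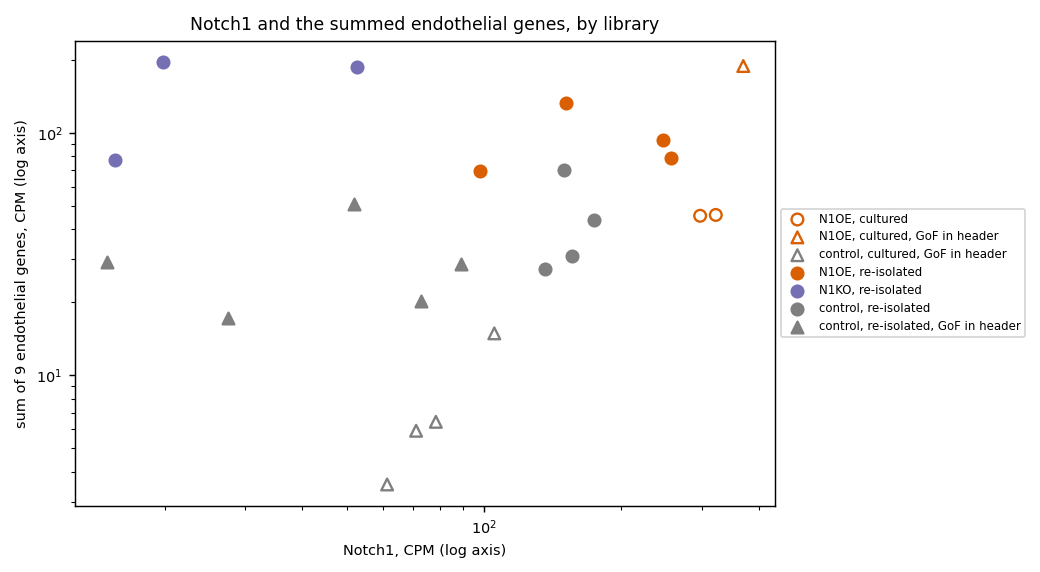
Summed CPM of the 9 genes (y) against Notch1 CPM (x) in 23 libraries, both axes logarithmic, open symbols cultured, filled re-isolated, triangles with GoF in the header. Re-isolated N1OE libraries (69.4 to 133 CPM) and N1KO libraries (76.8 to 196 CPM) are high at unlike Notch1 levels, and the controls (17.2 to 70.0 CPM) are mostly lower across the Notch1 range.

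The difference between N1OE and N1KO was not used to choose the genes, although the same libraries were. Genes seen with 1 read outnumbered those with 2 by 4.18 to 6.82 times in N1OE and 1.25 to 1.4 times in N1KO libraries. Line and this library property therefore cannot be told apart in this contrast. Of the 9 genes 1 passed, where 7.35% of 14155 genes did (2.92% higher and 4.43% lower in N1OE). Cldn5 was lower in N1OE, with 0.849 ± 0.889 CPM in N1OE and 12.3 ± 8.28 CPM in N1KO (SD, n = 4 and 3) and a log2 difference of -3.97 ± 1.02 (adjusted p = 0.0208 by limma). The call was lost without N1OE replicate 2 (adjusted p = 0.0589) or 3 (0.0518) and without N1KO replicate 2 (0.127) or 3 (0.0515). Cldn5 and Pecam1 did not overlap, lower in N1OE, as was true of 12.1% of tested genes.

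Pecam1 averaged 10.1 ± 5.47 CPM in N1OE and 27.9 ± 12.9 CPM in N1KO and missed the threshold (-1.54 ± 0.66, adjusted p = 0.161 by limma). Fitted without the controls, 4 of the 9 genes were lower in N1OE: Cldn5 (0.00127), Pecam1 (0.0479), Emcn (0.0481) and Cdh5 (0.0275, adjusted p by limma). In that fit 1608 of 13370 tested genes passed, 708 higher and 900 lower in N1OE. In the fit with controls Emcn (-1.76 ± 1.27), Cdh5 (-2.33 ± 1.61) and Esam (-0.66 ± 0.6) did not pass (adjusted p = 0.421, 0.394 and 0.527).

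None of the receptor genes passed between the lines. The log2 difference, N1OE minus N1KO, was 0.37 ± 1.17 for Kdr, 0.4 ± 1.26 for Aplnr, 1.56 ± 1.36 for Tek and -0.79 ± 0.53 for Flt1 (adjusted p = 0.88, 0.879, 0.511 and 0.383 by limma). At standard errors above 1 for Kdr, Aplnr and Tek, differences of several fold were not detectable.

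The cultured libraries took no part in the choice of the genes. Only Flt1 and Pecam1 passed the filter of 1 CPM in 3 libraries there. Flt1 had 186, 44.2 and 43.9 CPM in N1OE progenitors, against 0.138, 1.11, 0.232 and 5.35 CPM in controls. Every N1OE library lay above every control, as for 21.1% of tested genes, and N1OE replicate 1 far above the other 2. With means of 91.5 ± 82.2 CPM in N1OE and 1.71 ± 2.47 CPM in controls (SD, n = 3 and 4), the log2 difference was 6.54 ± 1.18 (adjusted p = 0.0192 by limma). Over all genes, 10.8% of 12314 passed (4.73% higher, 6.03% lower). Only 2 of the 4 controls reached 1 CPM for Flt1, which passed the filter through the N1OE libraries, and without the filter 0 of the 9 genes passed by limma (1 at an unadjusted p under 0.05). Of all 21264 genes 743 passed without the filter.

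The Flt1 call was lost without N1OE replicate 1, 2 or 3 (adjusted p = 0.077, 0.0804 and 0.0802 by limma), without the filter (0.0637), with limma-voom (0.0533) and without N1OE replicate 1 and control replicate 1 together, whose descriptions have another form (0.102). In culture the headers of N1OE replicate 1 and of all 4 controls end in GoF and those of N1OE replicates 2 and 3 do not, so the mark and the genotype cannot be fully told apart there. The log2 difference lay between 5.12 and 7.47 under all alternatives. By chi-square over its degrees of freedom, the counts of N1OE replicates 2 and 3 were closer to each other (3.31) than to replicate 1 (29.7 and 35), and the 3 were counted separately.

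Pecam1 had 1.19, 1.01 and 1.12 CPM in cultured N1OE and 2.44, 0.393, 0.51 and 5.89 CPM in cultured controls and did not pass (-0.27 ± 0.91, adjusted p = 0.863 by limma). Tek had 0.545, 0.126 and 0.406 CPM in N1OE and 0.597, 4.52, 4.73 and 0.892 CPM in controls. All N1OE values of Tek were below all controls, as for 13.7% of tested genes, but without the filter Tek did not pass (-2.38 ± 0.97, adjusted p = 0.236).

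The remaining 6 genes had at most 0.355 CPM in any cultured N1OE library and at most 1.43 CPM in any cultured control. Aplnr had no read in cultured N1OE, and Cldn5 and Emcn had none in cultured controls. Kdr had 1 read over the 3 cultured N1OE libraries and 9 over the 4 controls. Kdr and Aplnr were thus near 0 in cultured N1OE cells and high in re-isolated ones, while Flt1 was high in cultured N1OE and averaged 11.6 ± 5.45 CPM in re-isolated N1OE and 11.6 ± 6.57 CPM in re-isolated controls (SD, n = 4 and 9).

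Marked and unmarked controls differed in 27.6% of 13230 tested genes (13.6% higher and 14% lower in marked) and in 3 of the 8 endothelial genes that passed the filter, though in 0 of the 9 by limma without it (3 at an unadjusted p under 0.05). Without the filter 2760 of all 21264 genes passed. Cdh5 was higher in marked controls, at 8.3 ± 7.35 CPM, than in unmarked ones, at 1.44 ± 1.82 CPM (log2 difference 3.91 ± 1.28, adjusted p = 0.0397 by limma, SD with n = 5 and 4). Flt1 was lower in marked controls, at 7.33 ± 1.82 CPM against 16.9 ± 6.53 CPM in unmarked (-1.14 ± 0.35, adjusted p = 0.032 by limma). Esam was also lower, at 2.95 ± 0.557 CPM in marked against 9.18 ± 6.99 CPM in unmarked controls (-1.37 ± 0.45, adjusted p = 0.0401 by limma), with no overlap, as for 13% of tested genes.

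Single libraries decided these calls. Flt1 was lost without control replicate 1, 2, 3, 6, 8 or 9 (adjusted p = 0.0501 to 0.0945), Esam without replicate 4, 5, 6, 7, 8 or 9 (0.0518 to 0.123) and Cdh5 without replicate 1, 2, 3 or 8 (0.0668 to 0.125). Pecam1 did not pass (1.07 ± 0.53, adjusted p = 0.154), but did without replicate 6 (0.0341). Kdr (-0.3 ± 1.39), Emcn (-1.21 ± 1.39), Tek (-2.4 ± 1.27) and Aplnr (-1.71 ± 1.42) did not pass (adjusted p = 0.178 or more by limma).

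Of 70 other endothelial genes in 4 lists (ligands, receptors, transcription factors, and surface, junction and secreted genes), 64 were tested after re-isolation. In N1OE cells 3 were higher and 1 was lower than in controls (3.78% and 3.29% of all tested genes), with a median log2 difference of 0.25, against 0.06 over all genes. In N1KO cells 2 were higher and none lower (0.466% and 0.191%), with a median of 1.17, against 0.01, and 54 of the 64 differences were above 0. By list, the N1KO medians were 0.38 for ligands, 1.4 for receptors, 1.52 for transcription factors and 1.49 for surface, junction and secreted genes. The same lists had N1OE medians of -0.8, 0.11, 0.28 and 0.67. Against the marked controls, 10 were higher and 5 lower of 63 in N1OE (6.26% and 5.47% of all genes) and 11 and 0 in N1KO (2.59% and 1.33%). Against the unmarked, 9 were higher and 7 lower of 64 in N1OE (9.33% and 10.1%) and 19 and 1 in N1KO (3.88% and 3.41%).

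In N1OE cells Prox1, a factor of lymphatic endothelium that muscle also expresses, was higher at 112 ± 17.8 CPM in N1OE and 35.6 ± 15.2 CPM in controls (log2 difference 1.84 ± 0.45, adjusted p = 0.0169 by limma). The semaphorin receptor gene Plxnd1 (1.47 ± 0.35, 0.0146) and the repressor gene Bcl6b (3.27 ± 0.87, 0.0254) were higher too. Nrp2, a co-receptor of VEGF and semaphorins, was lower at 9.09 ± 4.75 CPM in N1OE and 41.3 ± 23 CPM in controls (-2.12 ± 0.48, adjusted p = 0.010), though not against the unmarked controls alone (0.0597). None of these 4 passed without N1OE replicate 2, Plxnd1 also failed without replicate 1, and Bcl6b without replicate 1 or 3 (adjusted p up to 0.11).

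In N1KO cells Klf2, a factor induced by blood flow, was higher at 389.8 ± 275 CPM in N1KO and 83.7 ± 31.4 CPM in controls (2.13 ± 0.47, adjusted p = 0.0386 by limma). Bcl6b was higher at 4.5 ± 2.59 CPM in N1KO and 0.284 ± 0.334 CPM in controls (4.24 ± 0.96, 0.0448). Both were lost without N1KO replicate 1, 2 or 3 or control replicate 2, 5 or 7, and Bcl6b also without control replicate 4 or 9 (adjusted p up to 0.367 and 0.324). Both passed against each control set alone.

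**Figure D4:**
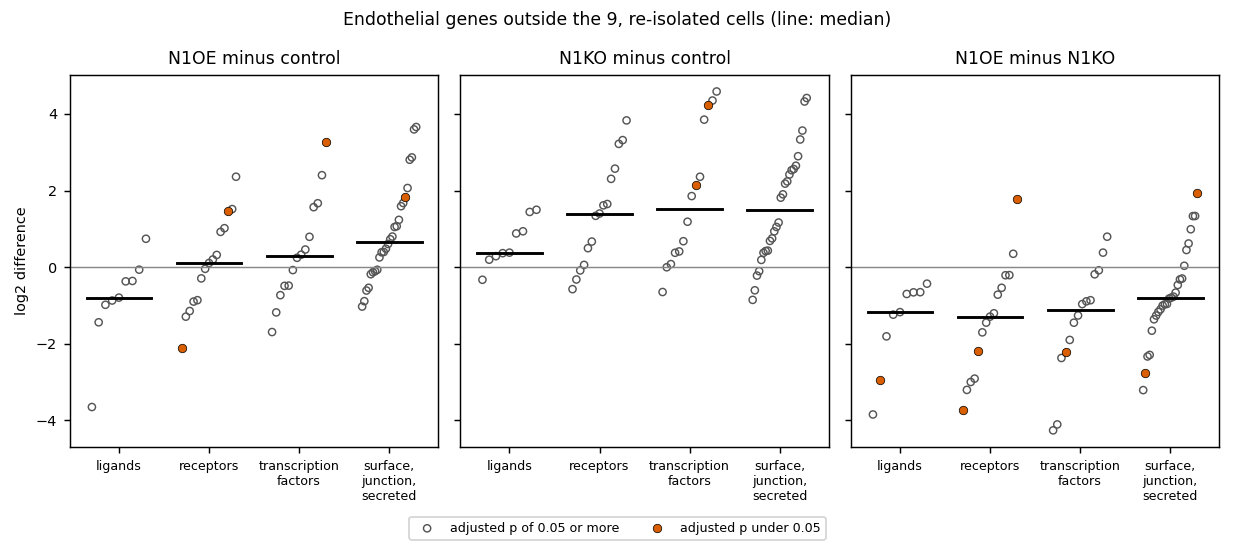
Log2 differences (y axis) of 64 other endothelial genes in 4 lists, for N1OE minus control, N1KO minus control and N1OE minus N1KO after re-isolation. Points are genes, lines are list medians, and filled points have an adjusted p under 0.05. In N1KO minus control 54 of 64 points lie above 0, and in N1OE minus N1KO 11 do.

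Between the lines 2 of the 64 genes were higher and 5 lower in N1OE than in N1KO (2.92% and 4.43% of all tested genes), with a median of -0.97, against 0.07 over all genes. Nrp2 had 9.09 ± 4.75 CPM in N1OE and 118 ± 55.4 CPM in N1KO (-3.73 ± 0.61, adjusted p = 0.000935 by limma). S1pr1, a sphingosine phosphate receptor of endothelium, had 7.36 ± 1.21 CPM in N1OE and 38.1 ± 19.7 CPM in N1KO (-2.2 ± 0.45, adjusted p = 0.00454). Both passed without any 1 library (adjusted p at most 0.0106 and 0.0463). Here too, line and the ratio of genes seen with 1 and 2 reads cannot be told apart. Angpt1, a ligand of Tek (-2.94 ± 0.62, 0.0060), Klf2 (-2.21 ± 0.53, 0.0145) and Ecscr (-2.75 ± 0.78, 0.0336) were lower, and Plxnd1 (1.79 ± 0.45, 0.0173) and Prox1 (1.94 ± 0.57, 0.043) higher in N1OE. These 5 were lost without N1KO replicate 2 (adjusted p up to 0.265 over all left-out libraries). Klf2 was also lost without N1OE replicate 4, and Plxnd1 without N1OE replicate 2 or N1KO replicate 1. Ecscr was also lost without N1OE replicate 2 or 4 or N1KO replicate 1 or 3, and Prox1 without any 1 N1OE library or N1KO replicate 1.

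Further defining genes of endothelium are named here after their values were seen. Sox17 lay at 0.344 to 1.8 CPM in N1OE, 4.95 to 30.4 CPM in N1KO and 0 to 4.36 CPM in controls. Erg lay at 0 to 3.69 CPM in N1OE, 4.13 to 16.2 CPM in N1KO and 0 to 2.71 CPM in controls. Tie1, the partner of Tek, lay at 0 to 3.88, 4.78 to 11.9 and 0 to 8.01 CPM in N1OE, N1KO and control cells. For Sox17 and Erg the N1KO libraries lay above all N1OE libraries, as for 12.1% of tested genes, and above all controls, as for 2.85%. These values were known when the genes were picked, so nothing is read from the lack of overlap. None of the 3 genes passed in either contrast with the controls (adjusted p = 0.134 or more by limma), and none passed between the lines. Etv2 had no read in N1OE and N1KO cells, and Sox18 none in N1OE cells.

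In culture 35 of the 70 genes were tested, with 3 higher and 3 lower in N1OE, where 4.73% of all tested genes were higher and 6.03% lower. S1pr1 had 109 ± 16.5 CPM in N1OE progenitors and 23.7 ± 4.03 CPM in controls (2.21 ± 0.17, adjusted p = 0.00231 by limma), and passed without any 1 library (at most 0.0218). Pgf, a ligand of Flt1 (1.16 ± 0.26, 0.0366), and the ephrin receptor gene Ephb4 (0.47 ± 0.1, 0.0326) were higher. Acvrl1, a receptor of the TGF-beta family (-3.18 ± 0.61, 0.0227), Flt4, the receptor of VEGF-C (-2.95 ± 0.62, 0.0305), and Apln, which encodes apelin (-1.86 ± 0.4, 0.032), were lower. These 5 were lost without N1OE replicate 2 or 3 (adjusted p up to 0.162). Pgf, Ephb4, Flt4 and Apln were also lost without N1OE replicate 1 or control replicate 2 or 3, and Apln without control replicate 1 too.

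Between marked and unmarked controls 9 of 59 tested genes of these lists were higher and 14 lower, where 13.6% of all tested genes were higher and 14% lower. Vegfa, the ligand of Kdr and Flt1, had 1.52 ± 0.858 CPM in marked and 13.5 ± 5.84 CPM in unmarked controls (-3.19 ± 0.52, adjusted p = 0.00147 by limma). Pgf (-2.44 ± 0.39, 0.00133) and Apln (-2.4 ± 0.49, 0.00466) were lower in marked controls, and Nrp2 (1.67 ± 0.25, 0.000878) and Clec14a (4.22 ± 0.84, 0.00418) higher. The ligand Vegfc (1.16 ± 0.25, 0.00647) was higher and the receptor gene Calcrl (-1.54 ± 0.45, 0.0242) lower. By list, 1 ligand was higher and 3 were lower, and 3 receptors were higher and 3 lower. Calcrl was lost without control replicate 2, 3 or 7, and the other genes named here passed without any 1 library.

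Of 13838 other genes, the 8 most like the mean profile of the 9 over the 16 re-isolated libraries were Bcl6b (Pearson r = 0.93), Egfl7 (0.93), Tinagl1 (0.91), Adgrl4 (0.9), Gimap6 (0.9), Mall (0.89), Ccdc85a (0.89) and Sox7 (0.89). With group means removed, r lay between 0.61 for Ccdc85a and 0.84 for Sox7. Egfl7, a secreted endothelial protein, lay at 2.85 to 12.2 CPM in N1OE, 7.98 to 24.2 CPM in N1KO and 0.799 to 5.45 CPM in controls.

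Markers of other cells differed between groups in part. In N1OE cells, against controls, 1 of 13 tested blood cell and platelet markers was higher and 1 lower, 1 of 2 erythroid markers was higher, 1 of 10 pericyte and smooth muscle markers was higher and 1 lower, 1 of 8 fibro-adipogenic markers was lower, and 3 of 12 satellite cell and myogenic markers were higher. Over all tested genes 3.78% were higher and 3.29% lower in N1OE. In N1KO cells none of these markers passed, where 0.466% of all genes were higher and 0.191% lower. The N1KO median log2 difference was 1.41 for the fibro-adipogenic markers (8 of 8 above 0), 1.0 for the blood cell and platelet markers (11 of 13), 1.06 for the erythroid (2 of 2), -0.16 for the pericyte and smooth muscle (5 of 10) and -0.41 for the satellite cell and myogenic markers (3 of 12), against 0.01 over all genes. In N1OE it was -0.9 (3 of 8), -0.57 (4 of 13), 3.52 (2 of 2), 0.15 (6 of 10) and 1.2 (12 of 12) in the same order, against 0.06. The 18 blood cell and platelet markers summed to 47.9 to 188 CPM in N1OE, 178 to 632 CPM in N1KO and 60.5 to 686 CPM in controls. Within the control sets these sums were 83.7 to 686 CPM in marked and 60.5 to 193 CPM in unmarked controls. In N1KO replicates 1, 2 and 3 the blood sums were 632, 178 and 618 CPM, beside endothelial sums of 76.8, 196 and 186 CPM. S100a9 was at 0 in all N1OE and Cd3e in all N1KO libraries, and Ptprc, the common leukocyte antigen, lay at 0 to 1.72 CPM in N1OE, 2.42 to 8.0 CPM in N1KO and 0 to 9.23 CPM in controls. The 6 erythroid markers summed to 285, 6.24, 5.59 and 2.59 CPM in N1OE replicates 1, 2, 3 and 4, so that replicate 1 alone was far above the rest. The sums were 0.281 to 7.38 CPM in N1KO and 0.663 to 2.0 CPM in controls.

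The 8 fibro-adipogenic markers summed to 2342 to 3784 CPM in N1OE, 6802 to 17106 CPM in N1KO and 1047 to 12288 CPM in controls, with 6802, 17106 and 11169 CPM in N1KO replicates 1, 2 and 3. The 10 pericyte and smooth muscle markers summed to 1231 to 1652 CPM in N1OE, 1101 to 1813 CPM in N1KO and 1764 to 3662 CPM in controls, and the 12 satellite cell and myogenic markers to 2975 to 4657, 1273 to 2502 and 1533 to 3305 CPM. In marked and unmarked controls the fibro-adipogenic sums were 3161 to 12288 and 1047 to 2193 CPM. The pericyte and smooth muscle sums were 2036 to 3662 and 1764 to 2838.5 CPM in the same order. For the satellite cell and myogenic markers they were 1533 to 2394 and 2426 to 3305 CPM. The part of these cells in the endothelial levels was not tested.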

How the data were processed

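Per the labels' protocols, RNA of cultured cells was extracted with Trizol for TruSeq stranded mRNA libraries, and RNA of re-isolated cells was taken up in Buffer RLT and on beads, copied with a NEBNext low-input cDNA kit and made into Nextera XT libraries. Per the submitters' processing notes, Trimmomatic 0.33, FastQC, featureCounts and edgeR were used on mm10. For aligner and annotation, nothing was given in the sources used here. Log2 CPM made by the authors fill the deposited table, in which -4.19 stands for 0 reads. CPM and whole reads (tolerance 0.05 reads) were recovered from them, and whether values were adjusted before deposit is not known. Library totals were 11637817 to 29154176 reads.

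The test was limma 3.58.1 in R 4.3.3 (eBayes with a trend, two-sided, Benjamini-Hochberg over all tested genes, threshold 0.05), run on genes that reached 1 CPM in 3 or more libraries. Culture had a fit of its own, re-isolation had 1 fit of 3 groups, and the controls were split by header in a further fit. Errors of log2 differences are standard errors. The fits were tested on simulated data. Alternatives were a pseudocount of 1 CPM, no filter, median ratio scaling, a block of replicate numbers, each library left out in turn, control sets and fits of 2 groups; limma-voom was added after the data were seen. Coordinates and exon lengths are from GENCODE M21, promoters from RefSeq (GRCm38.p6).

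By rule, the text names the 9 genes, up to 4 genes per endothelial list and comparison past the threshold with the smallest p (for marked against unmarked controls not all are printed), and the 8 genes most like the mean profile, leaving out predicted genes. The genes and lists were chosen with earlier results of these data known.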

Additional observations from a re-analysis of the deposited data

How the results depend on the processing

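Of the values for single genes under the alternatives, 936 kept their direction and, where calls were scored, their side of the threshold. A call was lost by 129 and gained by 4. Another 1 moved without a test (Cldn5 in N1KO minus control, 3.0 with a pseudocount of 1 CPM), and 14, none of them called, changed sign. For the 9 genes against re-isolated controls calls were not scored here. Values of these genes that changed side are therefore among the 936, and the number of calls varied as given above. Flt1 in N1OE minus control (0.06) was -0.00519 with median ratio scaling, -0.089 with the replicate block, -0.57 against the unmarked controls and -0.18 to 0.27 over the left-out libraries (below 0 without N1OE replicate 1 or 3 or control replicate 1 or 9). Cdh5 there (0.82) was -0.92 against the marked controls. Aplnr in N1OE minus N1KO (0.4) was -0.21 to 0.82 over the left-out libraries (below 0 without N1KO replicate 1), Kdr between control sets (-0.3) was 0.20 with limma-voom and -1.27 to 0.11 over the left-out libraries (above 0 without control replicate 7), and Pecam1 in culture (-0.27) was 0.43 with the block and -0.81 to 0.43 over the left-out libraries (above 0 without control replicate 1 or 4). In culture (1325 calls) the count was 743 without the filter and 196 without the libraries of another description form. The other endothelial genes, 6 in the fit as reported, numbered 2, 1 and, with the replicate number as a block, 10. Of the 9 genes 0 passed without the filter, with limma-voom or without those libraries, where Flt1 alone had passed. Median ratio scaling turned 583 higher and 742 lower into 428 and 882.

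For N1OE minus control (1000 calls) the replicate block gave 445, the marked controls 1627 and the unmarked 2691, and of the other endothelial genes (4) a pseudocount of 1 CPM gave 7, the marked controls 15 and the unmarked 16. For N1KO minus control (93 calls) the pseudocount gave 240, limma-voom 285, the block 61, and the marked and unmarked controls 544 and 1008. Its other endothelial genes (2) numbered 12 with the pseudocount, 0 without the filter, 4 with median ratio scaling, 15 with limma-voom, 11 and 20 with the marked and unmarked controls. For N1OE minus N1KO (1040 calls) the 2 groups alone gave 1608, with 13 other endothelial genes (7 as reported) and 4 of the 9 genes (1 as reported), while the pseudocount gave 11 and no filter 4 other endothelial genes. Median ratio scaling moved the median of all genes by -0.113 there. For marked minus unmarked controls no filter gave 15 other endothelial genes (23 as reported) and 0 of the 9 genes, and limma-voom gave 1 of the 9 (3 as reported). The cause of these changes was not tested.

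Leaving out each library in turn gave 158 to 1765 calls in culture, 562 to 1090 for N1OE minus control, 12 to 108 for N1KO minus control, 465 to 934 for N1OE minus N1KO and 2434 to 3821 between control sets. The other endothelial genes numbered 1 to 10, 1 to 6, 0 to 4, 2 to 6 and 15 to 24 in that order, and of the 9 genes 0 to 1 passed in culture, 0 to 1 for N1OE minus N1KO and 0 to 2 between control sets. The lowest counts came without N1OE replicate 3 in culture, N1OE replicate 2, N1KO replicate 2 and N1KO replicate 1 after re-isolation.

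Same-numbered samples did not all deviate together: correlations of their deviations ran from 0.037 to 0.468 in culture, from -0.158 to 0.0379 for N1OE and control, from -0.125 to 0.154 for N1KO and control and from -0.0118 to 0.113 for N1OE and N1KO. The numbers were therefore not taken as pairs. At the depth of these libraries, a count of 0 allows up to 3 reads.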
